A study of Mus musculus with 2 samples.

Results

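The lysyl oxidases are the 5 genes Lox, Loxl1, Loxl2, Loxl3 and Loxl4, all taken by symbol. The family was chosen for description with earlier results of these data known. They are 5 of the 15495 genes measured on both arrays of a study of HSP27, a small heat shock protein encoded by Hspb1, in bleomycin lung injury. Bleomycin, given into the trachea, damages alveolar cells and is followed by fibrosis. RNA of whole lung was hybridised to 2 one-colour arrays. The first is labelled C57BL6/N and the other C57BL6/N with an HSP27 overexpression transgene. Both samples were labelled male and 6 weeks old, both had received bleomycin at 1.25 mg/kg into the trachea, and both lungs were taken on day 14. The labels used here name neither the promoter nor the species of the transgene, and they do not say whether a sample is 1 animal or a pool. No untreated lung was analysed here. With 1 array in each group, the spread between animals is unknown and no test was possible, so every comparison below is between these 2 arrays.

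Lysyl oxidases are secreted, copper-dependent enzymes that oxidise lysine and hydroxylysine side chains of collagen and elastin. The aldehydes they make condense into covalent crosslinks, which give fibres their strength and make scar tissue stiff. Lox and Loxl1 carry a propeptide, which in Lox is removed by the protease BMP1. Loxl2, Loxl3 and Loxl4 carry scavenger receptor cysteine-rich domains in front of the catalytic domain. Lox acts on collagen and elastin, Loxl1 is best known for maintaining elastic fibres, and Loxl2 for crosslinking type IV collagen of basement membranes and for its presence in fibrotic tissue.

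One-colour arrays give a brightness per probe, in arbitrary intensity units, so levels are compared between arrays for the same probe and never between probes. The family was reported by 10 probes of 1 spot each, named in the files by the transcripts NM_010728 (Lox, 2 probes), NM_010729 (Loxl1, 2 probes), NM_033325 (Loxl2, 3 probes), NM_013586 (Loxl3, 1 probe) and NM_001164311 (Loxl4, 2 probes). All 10 probes were well above background, unsaturated and free of outlier flags on both arrays. RefSeq's promoter table, of assembly GRCm38.p6, held 1 of the 5 members, Loxl4. Its promoter is shown so that the sequence of its control region stands beside its signal, which lay nearest to the background limit. The 250 bases before its start site lie on the minus strand at chr19:42612807-42613056, and capitals mark GGGCGG, the core of sites bound by Sp1.
Loxl4 promoter: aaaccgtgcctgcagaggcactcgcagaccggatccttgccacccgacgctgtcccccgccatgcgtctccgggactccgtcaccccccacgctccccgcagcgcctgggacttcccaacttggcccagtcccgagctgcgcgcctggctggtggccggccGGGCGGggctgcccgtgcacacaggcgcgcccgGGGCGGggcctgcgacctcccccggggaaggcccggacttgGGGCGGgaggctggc
The motif GGGCGG, searched on both strands, matched 3 times, starting 89, 56 and 15 bases before the start site. It occurred in 32.7% of 32851 promoter windows of the same length. Loxl4's window was 76.0% G and C, where the median window was 52.4%. The letters ACGTG of hypoxia-inducible factors (in 16.6% of windows), TGANTCA of AP-1 (6.75%), CAGACA of Smad proteins (17.1%) and TATAAA of the TATA box (12.4%) did not occur in it on either strand. These matches describe letters alone and are not binding sites.

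All 5 lysyl oxidases had higher signal on the transgenic array than on the C57BL6/N array. On the scale of log2 signal minus the array's 75th percentile, the difference was 1.17 (2.25-fold) for Loxl1, 0.75 (1.68-fold) for Lox, 0.62 (1.54-fold) for Loxl4, 0.59 (1.51-fold) for Loxl2 and 0.17 (1.13-fold) for Loxl3. At least 1.5-fold higher were 4 of 5 members, where 10.2% of all measured genes were, and none (0 of 5) was 1.5-fold lower, where 8.35% of genes were. At least 2-fold higher was 1 member, Loxl1, where 3.81% of genes were, and 0 were 2-fold lower, where 1.87% of genes were. The median of the family was 0.62 and that of all 15495 genes -0.04. Loxl2 and Loxl4 lay close to the 1.5-fold line, and the count was 2 (Lox and Loxl1) both after normexp background correction, where 6.33% of all genes passed, and with 1 probe a gene, the brightest, where 10.2% did.

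Loxl1, the elastic fibre enzyme, had the highest difference of the family. Its first probe read 4900 ± 490 for C57BL6/N and 10171 ± 1017 for the transgenic lung, where ± is the scanner software's own error for the spot. Its second probe read 677 ± 67.8 and 2033 ± 203. Both probes were thus brighter on the transgenic array before scaling, by more than these spot errors, which leave out variation between animals and labelling. After scaling, the differences of the probes were 0.90 ± 0.20 and 1.44 ± 0.20 on the log2 scale. The probes differed from each other by 0.53, which was 1.85 times the error of that gap, so that Loxl1 was past 2-fold by the mean and by the second probe, and at 1.87-fold by the first. Loxl1 ranked 437th of 15495 genes from the highest difference, and 2.82% of genes were at or above it.

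Lox, the founding member, was next. Signal at its first probe was 663 ± 66.3 for C57BL6/N and 1340 ± 134 for the transgenic lung, and at its second 286 ± 28.7 and 491 ± 49.2. Both probes were past 1.5-fold, at 0.87 ± 0.20 (1.82-fold) and 0.63 ± 0.20 (1.55-fold) after scaling. They differed from each other by 0.24, less than the error of that gap (0.29). RefSeq lists 3 transcripts of Lox, and both probes were assigned to 1 of them. At or above Lox were 6.74% of genes.

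Loxl2, the basement membrane crosslinker, was reported by 3 probes that lay close together. They read 2863 ± 286, 780 ± 78.1 and 483 ± 48.4 on the C57BL6/N array. On the transgenic array the same probes read 4507 ± 451, 1365 ± 136 and 824 ± 82.5. Each of the 3 was brighter on the transgenic array. Scaled differences were 0.51 ± 0.20 (1.42-fold), 0.66 ± 0.20 (1.58-fold) and 0.62 ± 0.20 (1.54-fold), a range of 0.15 against an error of 0.29 for the gap. At or above Loxl2 were 9.99% of genes, so that its place among all genes was near the 1.5-fold background.

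Loxl4, whose promoter is printed above, was the member nearest to background. Signal at its first probe was 68.1 ± 7.36 for C57BL6/N and 104 ± 10.8 for the transgenic lung, and at its second 53.0 ± 6.27 and 101 ± 10.7. The lowest signals well above background were 11.9 and 12.5 on these arrays. Scaled differences of 0.46 ± 0.22 (1.37-fold) and 0.78 ± 0.23 (1.72-fold) placed 1 of its 2 probes past 1.5-fold. After normexp correction the difference of Loxl4 was 0.29.

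Loxl3, which acts in cartilage and craniofacial development, had the lowest difference of the family. Signal at its single probe was 415 ± 41.6 for C57BL6/N and 518 ± 51.9 for the transgenic array. The scaled difference of 0.17 ± 0.20 was no larger than the software's error, and 29.7% of all genes were at or above it. It was larger than the SD of 0.06 between repeated spots of like signal, which leaves out variation between animals and labelling. Its difference was 0.42 below the mean of Loxl2, the next member. The nearest probes of Loxl4 (0.46 ± 0.22) and Loxl2 (0.51 ± 0.20) lay about as far from the Loxl3 difference as the software's error of a gap between probes (0.29 to 0.32). By that error, 1 probe does not set Loxl3 apart.

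**Figure D1:**
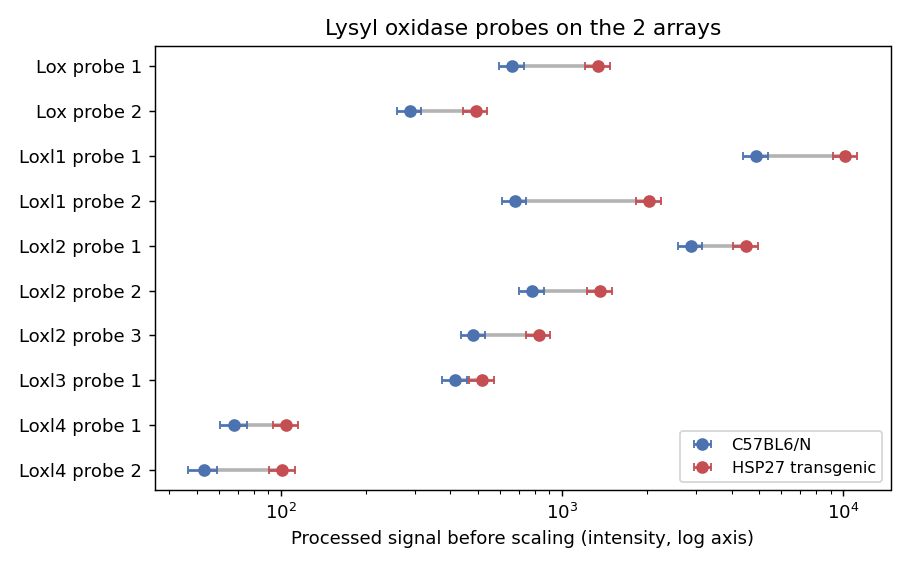
Processed signal (horizontal log axis, intensity before scaling) of the 10 lysyl oxidase probes on the C57BL6/N and the transgenic array; points are single spots and bars the scanner software's error. Each transgenic point lies to the right of its C57BL6/N point, with the widest gap at the second Loxl1 probe (677 and 2033) and the narrowest at Loxl3 (415 and 518).

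Taking probes singly, 10 of 10 were higher on the transgenic array, with scaled differences from 0.17 to 1.44, and 7 of 10 were past 1.5-fold, where 9.53% of 26387 usable probes were. The order of the members by difference was Loxl1, Lox, Loxl4, Loxl2 and Loxl3. Probe ranges of Loxl1 and Lox did not overlap, with means 0.42 apart, but their nearest probes (0.90 and 0.87) lay within the error of 0.20 of each. Lox and Loxl4 (0.13 apart) and Loxl4 and Loxl2 (0.02 apart) had overlapping ranges and could not be ordered. Spots printed repeatedly for other genes had an SD of a single-spot difference of 0.15 among the dimmest of 3 equal groups of probes, 0.06 in the middle group and 0.05 in the brightest. The software's error (0.20 to 0.23 for the members' differences) was wider than this, and both leave out variation between animals, dissections and labelling reactions.

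**Figure D2:**
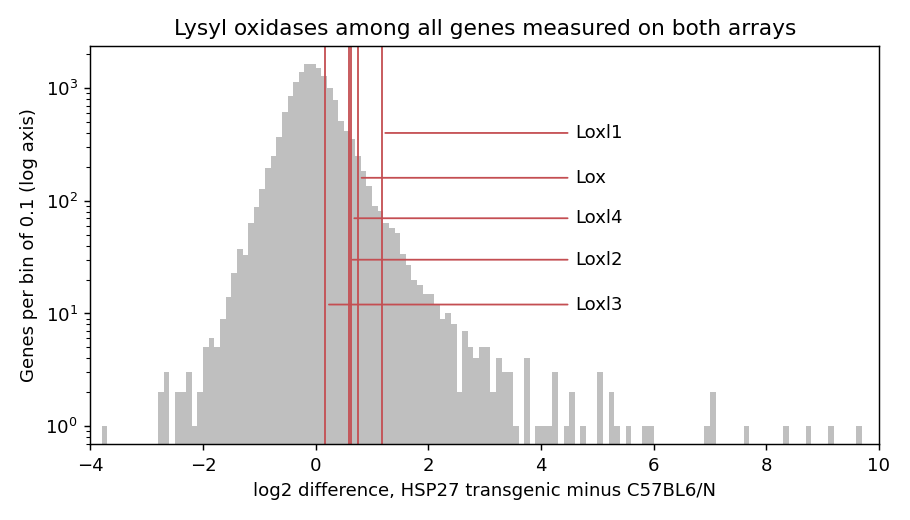
Number of genes (vertical log axis) by log2 difference between the transgenic and the C57BL6/N array (bins of 0.1), for 15495 genes measured on both, with the 5 lysyl oxidases as vertical lines. All 5 lines lie to the right of 0, from Loxl3 at 0.17 to Loxl1 at 1.17, inside the central 95% of genes (-0.92 to 1.24).

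The proteins on which lysyl oxidases act, and those that prepare their substrates, were described with 7 lists of partners. Of 91 partners, 86 were measured on both arrays, of which 30 (34.9%) passed 1.5-fold upward and 8 downward, against 10.2% and 8.35% of all measured genes, and the median difference was 0.33. List medians ran from 0.00 for upstream factors to 0.82 for fibrous substrates.

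Fibrous substrates had a median of 0.82, with 7 of 11 measured genes past 1.5-fold upward and 1 downward. Differences for the type I collagen chains, the main lysyl oxidase substrate of scar, were 0.80 (Col1a1) and 0.88 (Col1a2), and lay beside Lox at 0.75. Col3a1, the type III chain that forms mixed fibres with type I, differed by 0.32. The type V chains, which start and limit the width of type I fibres, were at 1.25 (Col5a1), 0.82 (Col5a2) and 1.73 (Col5a3). Elastin (Eln), the substrate of Loxl1 and Lox, was at 1.70 (3.26-fold). Col4a1 and Col4a2, the basement membrane chains on which Loxl2 acts, were both at 0.48, and Loxl2 was at 0.59. Cartilage collagens lay near background. Col2a1 was at 1.95 but at 0.52 after normexp correction, and Col11a2 at -0.65 but at -0.15 after it. Col11a1 was detected above background in transgenic lung alone and was at least 3.55-fold higher there, counted from the lowest detectable signal of the C57BL6/N array.

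Proteins that hold lysyl oxidases and their substrates together had a median of 0.74, with 12 of 21 past 1.5-fold upward and 2 downward. Fibromodulin (Fmod), a collagen-binding proteoglycan that also binds Lox, was at 1.90 (3.72-fold). The small proteoglycans decorin (Dcn, 2.0-fold) and lumican (Lum, 2.29-fold) and the collagen-binding protein dermatopontin (Dpt, 1.59-fold) were higher too. Fibronectin (Fn1), the scaffold on which early collagen is laid down and which binds Lox, was at 0.74. Thrombospondins 1 and 2 were at 1.01 (Thbs1) and 1.56 (Thbs2). Among elastic fibre proteins, Emilin1 was at 1.07, the fibrillins at 0.92 (Fbn1) and 0.75 (Fbn2), Fbln2 at 0.92 and the microfibril protein Mfap5 at 0.82. Others of this group were inside 1.5-fold: Mfap2 at 0.07, Efemp1 at -0.18, Ltbp4 at -0.34, Fbln1 at -0.36 and Mfap4 at -0.37. Fibulin 5 (Fbln5), which tethers Loxl1 to elastin, was past 1.5-fold downward, at -0.78 over 2 probes (-0.95 and -0.61), and fibulin 4 (Efemp2), which does so for Lox, was at 0.40. Tenascin X (Tnxb), which spaces collagen fibrils, was at -1.16, and periostin (Postn), which aids activation of Lox by BMP1, at -0.32. After normexp correction Fbln5 (-0.52) and Fbn2 (0.47) were inside 1.5-fold.

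The proteases that release active lysyl oxidase and trim procollagen differed less. The median was 0.20, with 1 of 7 measured genes past 1.5-fold upward (Adamts2, an N-propeptidase of procollagen, at 0.72) and 1 downward (Pcolce2, a procollagen C-proteinase enhancer, at -0.81). With 1 probe a gene or after normexp correction, 0 of the list passed upward. Bmp1, the protease that activates Lox, was at 0.43 over 3 probes from 0.20 to 0.77, and its enhancer Pcolce at 0.26.

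Enzymes and chaperones that hydroxylate collagen before it is crosslinked went both ways, with a median of 0.33 and 3 of 17 past 1.5-fold in each direction. The lysyl hydroxylases, which make the hydroxylysine from which stable crosslinks form, were at 0.49 (Plod1), -0.40 (Plod2) and 0.35 (Plod3). Past 1.5-fold upward were the prolyl hydroxylase subunit P4ha3 (0.85), the prolyl 3-hydroxylase P3h1 (0.65) and its partner Crtap (0.69). Past it downward were Colgalt2 (-1.15), which adds galactose to hydroxylysine, P4ha1 (-0.84) and P3h2 (-0.62). After normexp correction the upward count was 1, Crtap, and P3h2 was inside 1.5-fold there (-0.46) and under each other scaling. With the brightest probe alone P4ha3 (0.48) and P3h1 (0.34) were inside 1.5-fold. Plod1 was past it there (0.72) and with cyclic loess (0.6).

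Genes of copper handling, the metal that the catalytic site needs, had a median of 0.10, with 2 of 8 measured genes past 1.5-fold upward. These were the metal-binding metallothioneins Mt1 (1.04) and Mt2 (1.72), which also respond to stress and other metals. Atp7a, the pump that loads copper into secreted enzymes such as Lox, was at -0.51, the copper chaperone Atox1 that feeds it at 0.53 and the copper importer Slc31a1 at -0.09.

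Other crosslinking enzymes and amine oxidases were split, with a median of 0.55, 4 of 8 past 1.5-fold upward and 1 downward. The transglutaminase subunit F13a1 was at 1.29 and Tgm1, a transglutaminase of stratified epithelium, at 1.11. Tgm2, the transglutaminase abundant in lung, was at -0.06. The copper amine oxidases Aoc1 (1.67) and Aoc3 (1.12) were higher, and peroxidasin (Pxdn), which crosslinks type IV collagen, was at -0.73, but at -0.46 by its brightest probe. Aoc3 is also abundant in fat cells and smooth muscle.

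Signals and transcription factors linked to lysyl oxidases had a median of 0.00, with 1 of 14 measured genes past 1.5-fold upward (7.14%, against 10.2% of all genes) and 0 downward. That gene was Snai1 (0.82), a repressor of epithelial genes whose protein Loxl2 and Loxl3 are reported to stabilise. Tgfb1 was at 0.44, Tgfb3 at 0.47 and Hif1a, the hypoxia-inducible factor, at 0.48. Ccn2, a target of TGF-beta, was at 0.22 and Smad3 at 0.05. Above 0 were 7 of the 14. The others were Epas1 (-0.30), Pdgfa (-0.29), Zeb1 (-0.28), Snai2 (-0.27), Tgfb2 (-0.18), Pdgfb (-0.06) and Mrtfa (-0.05).

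**Figure D3:**
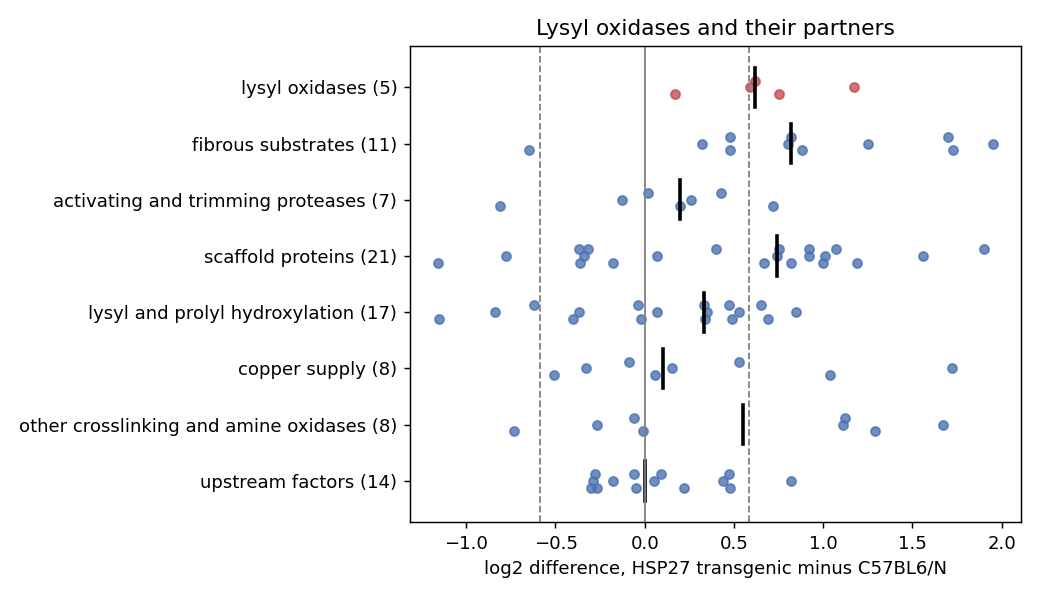
Log2 difference (horizontal axis) of each gene measured on both arrays, for the lysyl oxidases and 7 lists of partners (number of genes in brackets); thick bars are list medians and dashed lines mark 1.5-fold. The median lay at 0.62 for the lysyl oxidases, 0.82 for fibrous substrates, 0.74 for scaffold proteins and 0.00 for upstream factors.

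Cell markers also differed between the arrays, and in whole lung more cells of a type and more RNA per cell cannot be told apart. The counts below cover markers measured on both arrays and stand beside 10.2% of all measured genes past 1.5-fold upward and 8.35% downward. Smooth muscle markers, of cells that make elastin and lysyl oxidases, had a median of 1.18 with 6 of 7 past 1.5-fold upward. Their summed level went from 5.08 to 6.29 (log2, C57BL6/N then transgenic). Fibroblast markers had a median of 0.46 with 3 of 9 upward. Their summed level went from 6.48 to 6.11, a sum dominated by the bright probe of Inmt (6.29 and 5.79), while 6 of 9 markers were above 0. Cthrc1, a marker of activated fibroblasts, was at 1.92, Pdgfra at 0.06 and Tcf21 at -0.18. With the brightest probe alone the fibroblast median was 0.06. Markers of tissue other than alveoli were higher as well: 8 of 8 measured for cardiac muscle (median 3.84, summed level 1.82 and 4.78), 3 of 3 for fat (5.27, -2.20 and 4.29), 4 of 4 for basal airway cells (4.08, -1.23 and 1.84) and 4 of 4 for cartilage (1.51, -3.72 and -2.20). These medians moved with the treatment of dim probes, with normexp to 2.74 for basal airway cells and to 0.53, inside 1.5-fold, for cartilage. With the stricter filter no cartilage marker was left, and the fat value was 0.24, from the lower probe of Cidec alone. Cfd (9.62) and Retn (5.27), dim on the C57BL6/N array, were left out there. Macrophage markers had a median of 0.70 (summed level 5.26 and 5.74), with 3 of 5 past 1.5-fold upward and 1 downward. C1qa, a complement subunit, was at 1.74 and Marco, a receptor of alveolar macrophages, at -0.79. Of the cardiac list Mb and Sln, of the fat list Adipoq, Plin1 and Pck1, and of the basal airway list Krt17, were detected above background in transgenic lung alone. Of the fat list Lep, and of the cartilage list Cnmd, Col9a1, Matn1 and Matn3, did not reach background on both arrays. Markers of lung itself were detected on both arrays, with the surfactant gene Sftpc of alveolar type 2 cells at 8.44 and 8.04. Medians were -0.40 for alveolar type 2 cells (0 of 5 above 0), -0.35 for type 1 (1 of 4) and -0.68 for endothelium. After quantile normalization the type 2 median was -0.11. Both samples were labelled male, but Xist was detected above background for C57BL6/N alone, and Y-linked Ddx3y, Eif2s3y and Uty were 1.91 to 2.11 higher on the transgenic array. The part of these marker and sex-linked differences in the higher lysyl oxidase signal was not tested.

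The arrays were alike in the share of probes detected. Signal well above background was found at 69.3% of 39429 non-control probes for C57BL6/N and 69.4% for the transgenic array, no spot was saturated, and the 75th percentile of signal was 1288 and 1428. The mouse Hspb1 probe, which may not detect a transgene of another species, differed by 0.24.

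**Figure D4:**
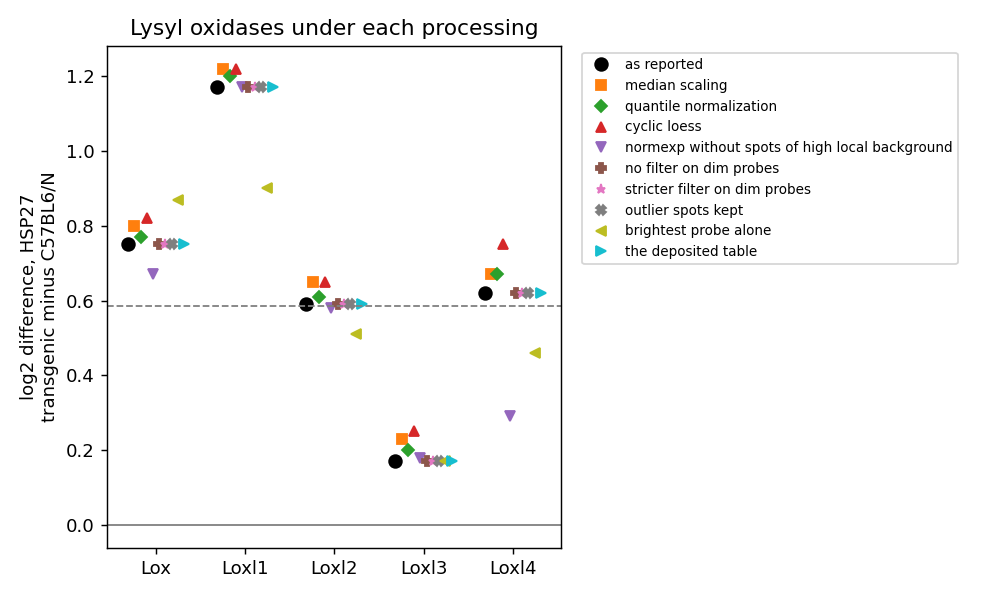
Log2 difference (vertical axis) of each lysyl oxidase between the transgenic and the C57BL6/N array as reported and under 9 other ways of processing, 1 symbol each; the dashed line marks 1.5-fold. Lox (0.67 to 0.87) and Loxl1 (0.90 to 1.22) stayed above the line in all 9, Loxl2 and Loxl4 fell below it in 2, and Loxl3 stayed below it. Both filters, outlier spots kept and the deposited table could not change a member.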

How the data were processed

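The deposited array files hold, per the file headers, a fluorescence intensity for every spot from Agilent Feature Extraction 11.5.1.1, with background subtracted, trends within the array removed and no normalization between arrays. The deposited series table likewise holds intensity without log, and its values lay within 0.1% of the processed signal at all 39030 single-spot probes of each array. After control and outlier spots were removed, log2 signals were averaged over the spots of a probe, less the array's 75th percentile over non-control probes. Probes counted as usable with at least 50% of spots well above background and none saturated on either array, and genes were given the mean of their usable probes. RefSeq accessions, without version, were looked up in RefSeq's genes of assembly GRCm38.p6, and 27508 of 39429 probes (69.8%) had a symbol. The headers name build mm9, so no probe or gene coordinates are given. The promoter's coordinates are those of GRCm38.p6, and the gene table also gave gene order. Error of a difference combined the software's errors of both spots.

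There was 1 array a group, so no test was run. The members, the partner and marker lists and the 1.5-fold and 2-fold thresholds were chosen with earlier results of these data known, and support nothing beyond description. Named were all members, each partner past 1.5-fold and 19 fixed partners. Further partners inside 1.5-fold and a few markers were named by no fixed rule. Scaling and averaging over probes were tested on simulated data, made from the C57BL6/N values with random noise and planted fold changes. Background subtraction, detection of dim probes and the alternatives were not tested in this way. Alternatives were median scaling, quantile normalization, cyclic loess, normexp (offset 50, on median signals, without 7 spots whose local background reached their signal), no filter and a stricter filter on dim probes (4 times the lowest signal well above background), outlier spots kept, the brightest probe alone, and the deposited table. Python 3.11.15, numpy 2.4.6, pandas 2.3.3, matplotlib 3.10.9, R 4.3.3 and limma 3.58.1 were used.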

Additional observations from a re-analysis of the deposited data

How the results depend on the processing

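Each lysyl oxidase kept its direction under all 9 alternatives, but both filters, outlier spots kept and the deposited table could not change a member. With the brightest probe alone, Lox was at 0.87, Loxl1 at 0.90, Loxl2 at 0.51 and Loxl4 at 0.46, the family median was 0.51, and 2 members were at least 1.5-fold and 0 at least 2-fold higher, which follows from dropping the other probes. With normexp, Loxl4 was at 0.29, Loxl2 at 0.58, and 2 members passed 1.5-fold. Cyclic loess gave 0.65 for Loxl2, 0.25 for Loxl3 and 0.75 for the median. For both, the cause was not tested. Both cyclic loess and median scaling gave 1.22 for Loxl1. Quantile normalization moved no member by more than its repeat-spot SD. Both filters, outlier spots and the deposited table left each member's value as it was. This was fixed beforehand, because every member probe passed both filters, had no outlier flag and was a single spot with the deposited value. These settings are therefore no check on the members. Of all genes, 2525 were at least 1.5-fold higher without the filter and 980 with normexp, against 1580. At least 1.5-fold lower were 2088 and 682, against 1294; at least 2-fold higher 1194 and 306, against 590, and lower 737 and 112, against 290. No paired analysis was possible because each group holds 1 array. Signal over background limits Loxl4 most, and the number of arrays limits every difference.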

Other observations

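Genes beside the lysyl oxidases on their chromosomes were compared, in the order that the gene table gives. Of 21 neighbours (up to 2 protein-coding genes on each side and any that overlap), 15 were measured on both arrays. Past 1.5-fold upward was 1 of 15, 1700034E13Rik, and 0 were past it downward, where 10.2% and 8.35% of all measured genes were. That gene, which follows Zfp474 after Lox, was at 0.86 by 1 probe that was dim on both arrays (scaled signal -5.64 and -4.77). The median was 0.15, with differences from -0.32 to 0.86. The other measured genes next to Lox were Srfbp1 (-0.03), a cofactor of serum response factor, and Zfp474 (0.45). Beside Loxl1, Pml, the scaffold of nuclear bodies, was at -0.29, Stoml1 at 0.05 and Insyn1 at 0.56. Htra2, a mitochondrial protease whose gene overlaps Loxl3, was at -0.02, and Loxl3 itself at 0.17. The measured genes next to Loxl3 were M1ap (0.56), Dok1 (-0.06) and Aup1 (0.38).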
